A study of Mus musculus with 24 samples.

Results

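The genes of the mitochondrial ribosome were followed in mouse bone marrow-derived macrophages by RNA sequencing. The members were all rows of the deposited gene count table with a symbol that begins with Mrpl or Mrps followed by a number, whatever their values, and there were 77 of them among 11590 genes. Macrophages were grown from the marrow of male C57BL/6 mice with the growth factor M-CSF, and the mice were either wild-type (WT) or lacked the G protein-coupled receptor GPR35 (KO). On day 7 the cells of each genotype were left untreated (Cont) or received 10 µM lysophosphatidic acid (LPA), a signalling lipid, or 10 ng/mL lipopolysaccharide (LPS), a bacterial cell wall component sensed by Toll-like receptor 4, and were lysed after 4 h. The 6 groups, WT Cont, WT LPA, WT LPS, KO Cont, KO LPA and KO LPS, had 4 replicates each, which gave 24 libraries of polyadenylated RNA. The labels do not say whether replicates came from separate animals, so the p-values measure the spread between these libraries, which may be technical.

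The mitochondrial ribosome translates the few messenger RNAs encoded by mitochondrial DNA, all of which specify subunits of the respiratory chain and the ATP synthase. Its own proteins are encoded in the nucleus, made in the cytosol and imported, and they assemble with mitochondrial ribosomal RNA into a large subunit, which joins amino acids, and a small subunit, which reads the messenger. Some of these proteins have a counterpart in bacteria and others are found only in mitochondria. LPS-stimulated macrophages are known for turning from respiration towards glycolysis.

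Of the members, 50 encode proteins of the large subunit and 26 of the small subunit. Within the large subunit 29 have a bacterial counterpart and 21 are specific to mitochondria, among them Mrps30 and Mrps18a, which carry small-subunit names. Within the small subunit 16 have a counterpart and 10 do not. The remaining gene, Mrps36, matched the symbol rule but its product is now assigned to the oxoglutarate dehydrogenase complex of the citric acid cycle. The table was complete for these members in every library, and the smallest count of any of them in any library was 28.

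Library totals were 31985119 to 46697165 counts in WT and 15167683 to 21461866 in KO. Each WT library was sequenced on 2 lanes and each KO library on 1 lane, so that lane, depth and genotype cannot be told apart. Gpr35 itself was at 2.33 to 2.78 CPM (counts scaled to a fixed library total and by TMM size factors) in WT Cont and 0.0529 to 0.205 CPM in KO Cont. All 8 macrophage markers checked were in the table. None of the 4 dendritic cell, 5 T and B cell or 4 erythroid markers was, while 7 of 8 neutrophil markers (without Ly6g) were, with a summed level of 168 to 533 CPM over all libraries against 30921 to 47250 CPM for the macrophage markers. In bulk RNA, fewer cells of a type and less RNA per cell cannot be told apart.

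The members were transcripts of moderate abundance that differed widely among themselves. On the RPKM scale (TMM-scaled CPM per kilobase of the deposited gene length), their median over the 24 libraries was 14.4, against 8.92 for all genes of the table. Over the 24 libraries Mrpl52, a mitochondria-specific protein of the large subunit, had the highest RPKM at 82.3, followed by Mrpl20 at 56.0 and Mrpl24 at 48.7. Mrps25, Mrpl17 and Mrpl41 had the lowest such means, at 2.13, 2.90 and 2.97 RPKM. These means include the LPS libraries, where Mrpl52 was at 138 RPKM in WT. In WT Cont alone Mrpl24 was highest at 52.3 RPKM, then Mrpl52 at 50.4 and Mrps21 at 50.1, with Mrpl20 at 43.1. In KO Cont these 4 were at 51.8, 51.1, 51.6 and 43.4. The genes were short, with a median length of 1053 bases against 2911 for all genes, and a deposited length that counts long, rarely used ends lowers the RPKM of a gene. Large-subunit genes had a median of 14.98 RPKM and small-subunit genes 11.3. In untreated cells the 77 genes together took 0.150% ± 0.0019 of all counts in WT and 0.153% ± 0.0017 in KO (SD, n = 4).

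Promoter sequences of RefSeq (build GRCm38.p6, 250 bases before to 50 after the start) were at hand for 68 of the members. Those of 4 members on which the results below turn are shown, because their transcripts moved in different directions: Mrpl52 and Mrpl39 rose with both treatments in WT, and Mrpl28 and Mrpl9 fell with both. Capitals mark, in Mrpl52, both matches to CCGGAAG (a core of ETS-family sites, such as those of GABP, here on the other strand); in Mrpl39 and Mrpl9, the palindrome bound by nuclear respiratory factor 1 (NRF1); and in Mrpl28, a match to the NF-kB consensus. The windows are chr14:54426659-54426958 (plus strand) for Mrpl52, chr16:84735195-84735494 (minus strand) for Mrpl39, chr17:26123253-26123552 (plus strand) for Mrpl28 and chr3:94443086-94443385 (plus strand) for Mrpl9. For Mrpl9 the promoter entry uses a start 182 bases past the start of the annotated gene, while the other 3 windows follow the annotated start.
Mrpl52: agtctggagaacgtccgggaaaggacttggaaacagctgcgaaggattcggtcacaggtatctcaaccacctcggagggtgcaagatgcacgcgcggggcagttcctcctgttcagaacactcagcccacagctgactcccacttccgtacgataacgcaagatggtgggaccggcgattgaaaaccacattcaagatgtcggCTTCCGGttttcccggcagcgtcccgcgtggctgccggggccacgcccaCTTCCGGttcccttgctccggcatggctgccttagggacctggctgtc
Mrpl39: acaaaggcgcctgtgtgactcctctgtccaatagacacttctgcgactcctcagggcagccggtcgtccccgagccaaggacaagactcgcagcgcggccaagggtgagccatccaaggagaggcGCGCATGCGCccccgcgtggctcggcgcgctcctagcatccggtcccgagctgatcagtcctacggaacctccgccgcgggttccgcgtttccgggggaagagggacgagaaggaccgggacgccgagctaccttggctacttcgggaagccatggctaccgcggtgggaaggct
Mrpl28: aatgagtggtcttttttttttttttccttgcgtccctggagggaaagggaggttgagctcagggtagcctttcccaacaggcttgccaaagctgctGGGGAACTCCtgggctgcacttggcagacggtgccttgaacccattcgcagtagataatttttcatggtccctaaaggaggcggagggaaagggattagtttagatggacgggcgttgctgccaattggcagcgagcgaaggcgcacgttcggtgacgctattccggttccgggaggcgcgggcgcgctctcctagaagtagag
Mrpl9: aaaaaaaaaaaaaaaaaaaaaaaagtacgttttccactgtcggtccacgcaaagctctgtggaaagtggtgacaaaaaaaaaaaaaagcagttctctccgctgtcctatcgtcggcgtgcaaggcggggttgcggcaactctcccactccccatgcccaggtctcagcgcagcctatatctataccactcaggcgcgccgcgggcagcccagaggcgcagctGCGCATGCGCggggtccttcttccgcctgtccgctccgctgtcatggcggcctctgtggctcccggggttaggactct

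On either strand, CCGGAAG was found in 26 of the 68 promoters (38.2%), against 21.5% of the promoters of all genes of the table and 9.93% of all promoters of the reference. The NRF1 palindrome was in 3 of 68 (4.41%, against 2.49% of the table), the YY1 site in 5 (7.35%, against 1.98%), the E-box CACGTG in 5 (7.35%, against 12.1%) and the NF-kB consensus in 2 (2.94%, against 6.16%). Overlapping matches of different motifs were all counted. The share with CCGGAAG was 39.1% among members that rose with LPS in WT, 37.0% among those that fell and 38.9% among the rest. These are matches of letters in a fixed window and not measured binding.

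LPS divided the mitochondrial ribosome into genes that rose and genes that fell, in near equal numbers. In WT, 28 members rose and 29 fell (edgeR quasi-likelihood test, Benjamini-Hochberg adjusted p below 0.05 over all genes), which is 74.0% of them. Among all genes 84.2% were called, 40.6% higher and 43.6% lower, so the share of members called was below the background. The median log2 change of the members was 0.04, against -0.04 for all genes. Their changes were also small: 21 members passed a 1.5-fold change (55.4% of all genes did) and 8 a 2-fold change (35.7% of all genes), and the SD of the log2 changes was 0.53 against 1.38 for all genes. All 28 rises and 28 of the 29 falls had 4 LPS libraries outside the range of the 4 Cont libraries, as had 95.3% of the rises and 94.6% of the falls among all called genes (38.7% and 41.2% of all genes tested).

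These directions depend on the size factors. LPS libraries had TMM factors of 0.739 to 0.840, against 1.06 to 1.18 in the others. Scaled by library totals alone, the median change of all genes with LPS moved to -0.59 in WT and -0.55 in KO, and the members split 7 higher to 61 lower in WT and 7 to 58 in KO. The share of higher among all called genes went from 48.3% to 23.3% in WT and from 47.7% to 24.1% in KO. The share of all counts taken by the members fell from 0.150% to 0.113% ± 0.0044 in WT LPS, while their summed TMM-scaled CPM went from 1338 ± 30.0 to 1480 ± 26.7 (SD, n = 4). Relative to the median of all genes the members stood 0.08 higher in WT and 0.10 higher in KO under either scaling. This sameness follows from the method, since a change of size factors shifts all genes nearly alike. The changes below are relative to the TMM scaling.

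**Figure D1:**
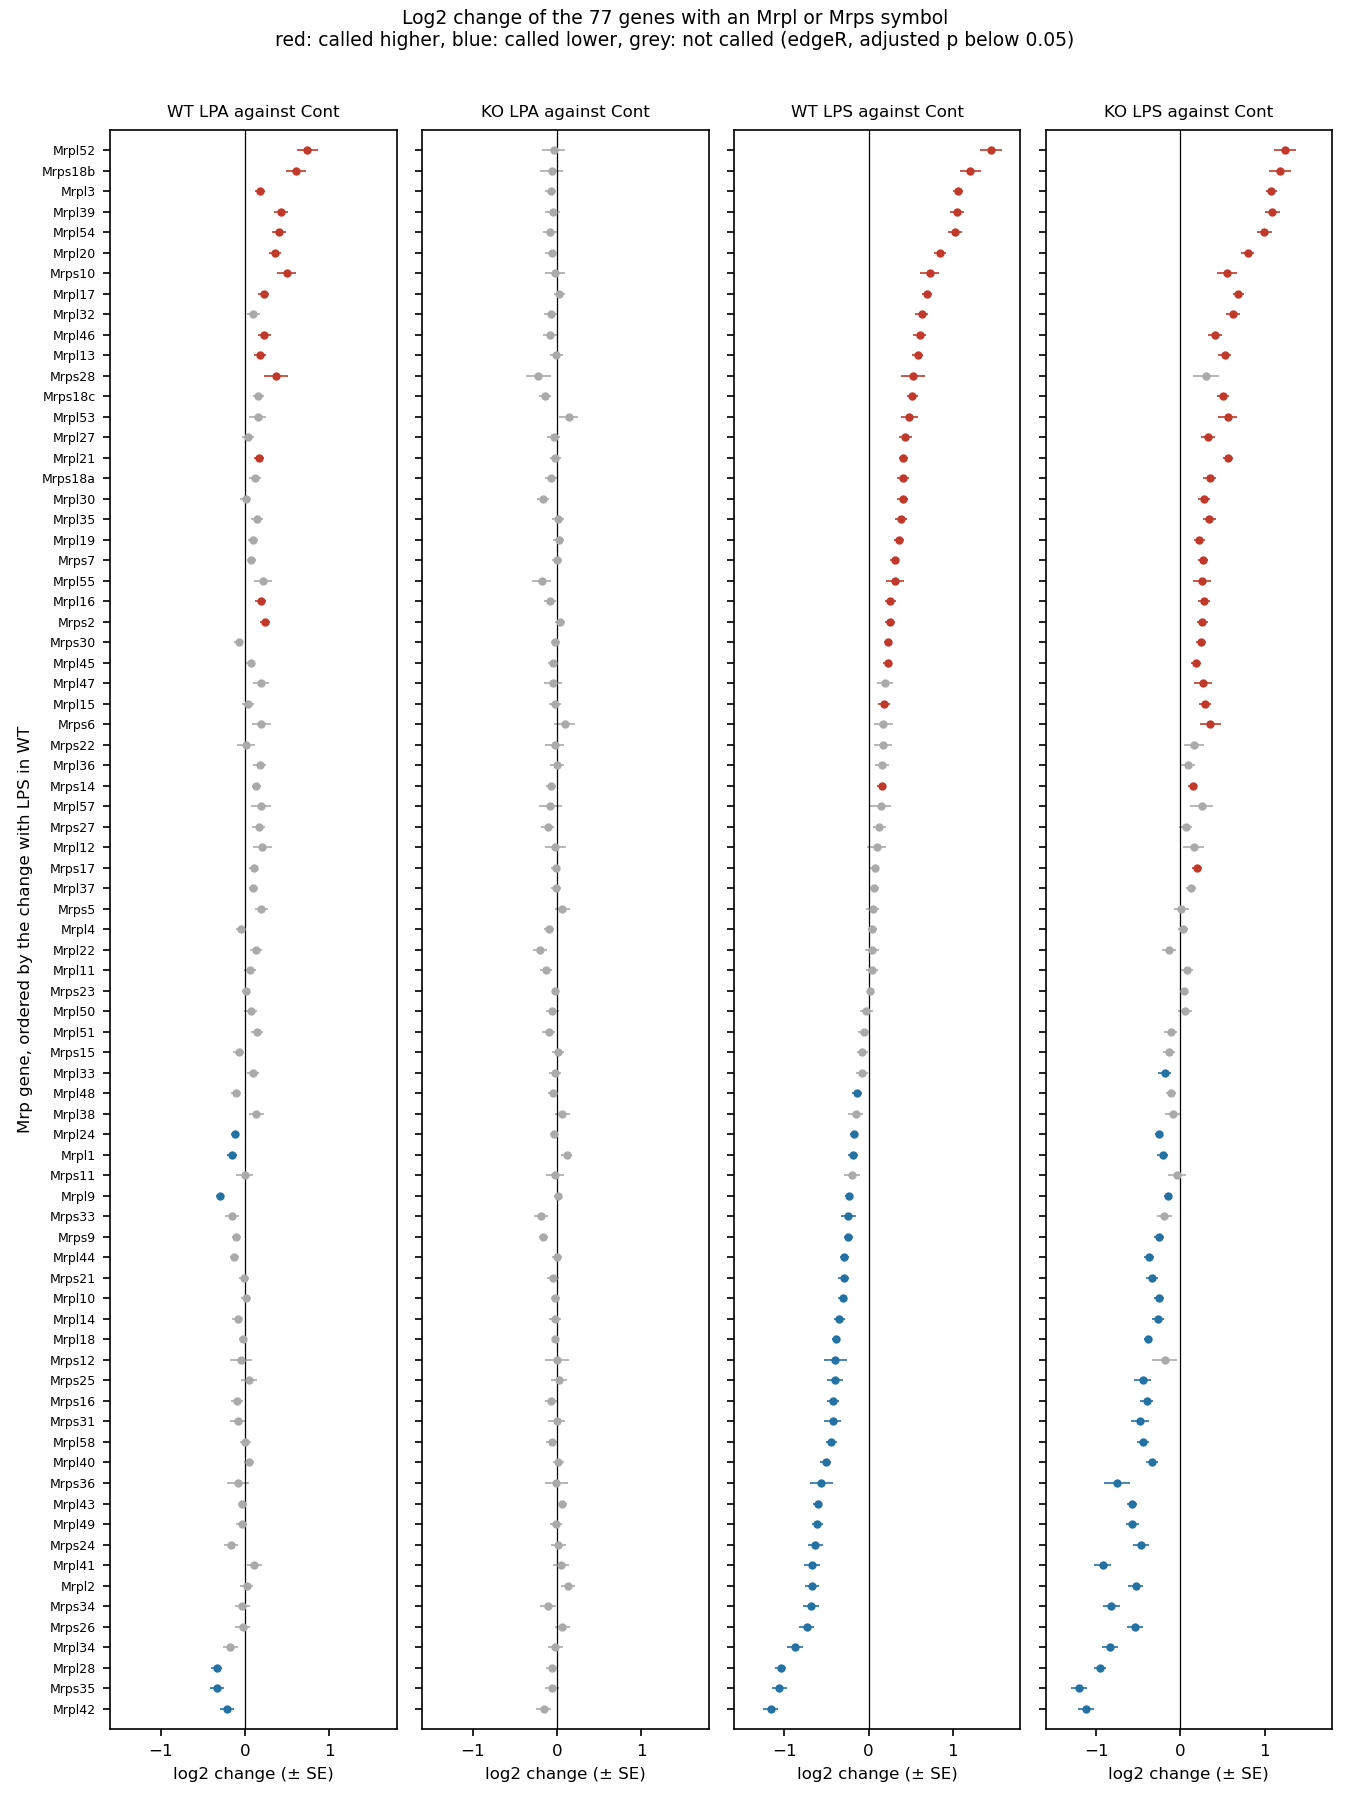
Log2 change (x axis, with standard error) of each of the 77 genes with an Mrpl or Mrps symbol (rows, ordered by the change with LPS in WT) in 4 comparisons; red points were called higher, blue lower and grey neither. With LPS 28 genes rose and 29 fell in WT and 30 and 27 in KO, with LPA 14 rose and 6 fell in WT, and the points of KO LPA lie between -0.22 and 0.14 with none called.

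Mrpl52 had the largest rise with LPS. Its TMM-scaled CPM was 22.6, 21.1, 17.3 and 22.0 in WT Cont and 63.2, 54.2, 57.1 and 52.8 in WT LPS. Every LPS library was above every Cont library, by a log2 change of 1.45 ± 0.13 (SE, edgeR adjusted p = 3.5e-10), a 2.74-fold rise. In KO it went from 18.7, 21.1, 22.9 and 21.5 to 44.4, 61.4, 48.3 and 45.0 CPM, again without overlap, with a log2 change of 1.24 ± 0.13 (edgeR adjusted p = 1.4e-08). Mrps18b, one of 3 mammalian paralogues of a bacterial small-subunit protein, was next. It stood at 15.7, 14.1, 12.7 and 14.3 CPM in WT Cont and at 37.9, 35.3, 28.9 and 29.2 in WT LPS, with no overlap. Its log2 change was 1.21 ± 0.12 in WT (edgeR adjusted p = 3.7e-09) and 1.18 ± 0.13 in KO (1.8e-08).

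Mrpl3, a large-subunit protein with a bacterial counterpart near the site of peptide bond formation, rose in both genotypes. It went from 32.0, 29.2, 25.8 and 27.9 CPM to 60.02, 61.1, 57.7 and 61.3 in WT, a log2 change of 1.06 ± 0.06, and changed by 1.08 ± 0.06 in KO. Mrpl39, assigned to the rim of the exit tunnel through which the new protein leaves, went from 21.4, 21.3, 21.6 and 21.8 CPM to 36.4, 42.1, 48.1 and 51.8. The control libraries lay close together and the LPS libraries were more spread, all above them, and the log2 change was 1.05 ± 0.09 in WT and 1.09 ± 0.09 in KO. Mrpl54, a mitochondria-specific large-subunit protein, rose by 1.03 ± 0.08 in WT and 1.00 ± 0.09 in KO, and Mrpl20 by 0.85 ± 0.07 and 0.80 ± 0.08. Mrps10, a small-subunit protein with a bacterial counterpart, rose by 0.73 ± 0.11 and 0.56 ± 0.12.

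The deepest falls were in 3 genes of both subunits. Mrpl42, a mitochondria-specific large-subunit protein, had 16.6, 15.6, 13.6 and 16.6 CPM in WT Cont and 6.80, 6.73, 7.25 and 7.11 in WT LPS. The groups were far apart, and it fell by 1.16 ± 0.09 on the log2 scale (edgeR adjusted p = 1.7e-11) in WT and by 1.12 ± 0.09 in KO. Mrps35, a mitochondria-specific small-subunit protein, went from 10.4, 10.9, 10.3 and 10.0 CPM to 4.91, 5.18, 5.20 and 4.75, and fell by 1.06 ± 0.09 in WT and by 1.21 ± 0.10 in KO. Mrpl28, with a bacterial counterpart, went from 28.9, 27.4, 28.6 and 27.3 CPM to 14.1, 12.6, 12.8 and 14.8. No LPS library reached the controls, and it fell by 1.05 ± 0.07 in WT (edgeR adjusted p = 7.9e-13) and by 0.95 ± 0.07 in KO. Mrpl34 fell by 0.88 ± 0.09 and 0.83 ± 0.10, and Mrpl41 by 0.67 ± 0.10 and 0.92 ± 0.11.

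**Figure D2:**
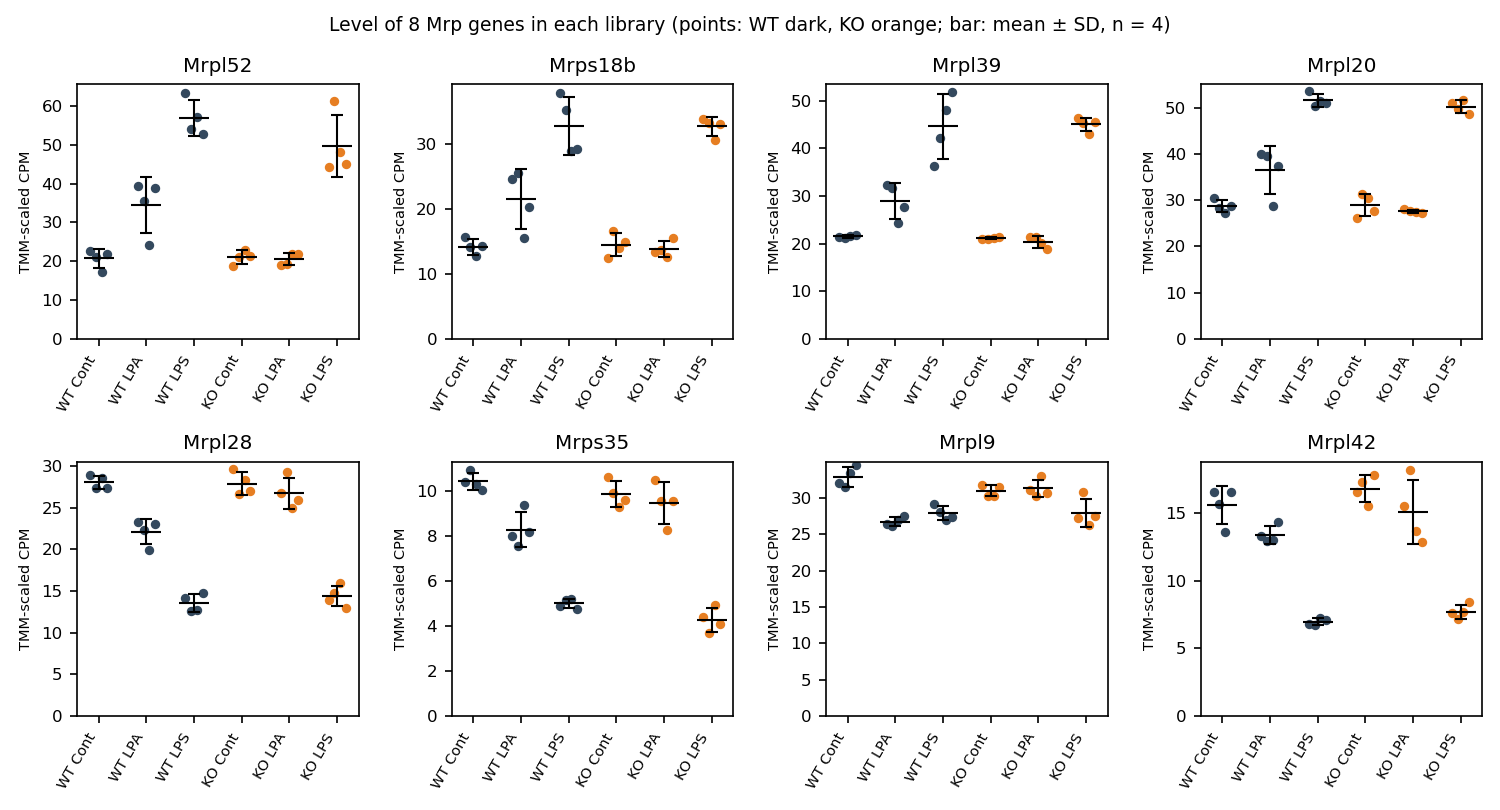
TMM-scaled CPM (y axis, from 0) of 8 genes in the 4 libraries of each group (points, WT dark and KO orange) with the mean and SD (bars). Mrpl52, Mrps18b, Mrpl39 and Mrpl20 are higher and Mrpl28, Mrps35, Mrpl9 and Mrpl42 lower with LPS in both genotypes. With LPA all 8 are called in the same directions in WT. Replicate 3 of WT LPA lies nearest the controls for Mrpl52, Mrps18b, Mrpl39, Mrpl20 and Mrps35, but not for Mrpl28, Mrpl9 or Mrpl42.

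The paralogous trio Mrps18a, Mrps18b and Mrps18c moved the same way. All 3 rose with LPS, by log2 changes of 0.40 ± 0.07, 1.21 ± 0.12 and 0.52 ± 0.07 in WT and of 0.35 ± 0.07, 1.18 ± 0.13 and 0.51 ± 0.07 in KO. By library totals Mrps18a was instead lower in both genotypes (-0.15 in each) and Mrps18c was -0.04 in WT, and in KO 0.01 without passing the test, so of the trio only the rise of Mrps18b was called under both scalings. The stalk that recruits translation factors did not move as a unit. Mrpl10, its base, fell by 0.31 ± 0.06 in WT and by 0.25 ± 0.06 in KO. Mrpl12, its repeated arm, differed by 0.09 ± 0.12 in WT and 0.16 ± 0.12 in KO, and Mrpl11 by 0.04 ± 0.07 and 0.08 ± 0.07, none of which passed the test.

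Mrpl45, which anchors the ribosome at the inner membrane, rose by 0.22 ± 0.06 in WT and 0.18 ± 0.06 in KO, and Mrps30 by 0.23 ± 0.05 and 0.25 ± 0.06, while its partner in the large subunit Mrpl37 differed by 0.06 in WT without passing the test (edgeR adjusted p = 0.34). Mrpl45, Mrps30 and Mrpl37 were all lower by library totals in both genotypes. Mrps12, a protein of the decoding centre, fell by 0.40 ± 0.14 in WT (edgeR adjusted p = 0.0096) and was -0.19 ± 0.15 in KO (0.24). In WT LPS it was 8.55, 5.62, 7.63 and 8.13 CPM, all below the WT Cont libraries at 8.71 to 10.8. Without replicate 2 of WT LPS, the lowest, the difference was -0.28 and did not pass (adjusted p = 0.054). Mrps36, of the oxoglutarate dehydrogenase complex, fell by 0.56 ± 0.14 in WT and by 0.75 ± 0.15 in KO.

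By class, the large-subunit genes with a bacterial counterpart had 13 rises and 9 falls with LPS in WT among 29 (median log2 change 0.16), and the mitochondria-specific ones 8 and 8 among 21 (median -0.03). The small-subunit genes with a counterpart had 6 rises and 5 falls among 16 (median 0.06). Of the 10 mitochondria-specific small-subunit genes, Mrps18b rose and 6 fell (median -0.32). In KO the same class had 1 rise and 5 falls (median -0.32). The central protuberance, a landmark of the large subunit, had 3 rises and 3 falls among 7 genes, and the exit tunnel 3 and 2 among 8. The 4 subunit classes had 68.8% to 76.2% of their genes called with LPS in WT, each below the 84.2% of all genes.

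**Figure D3:**
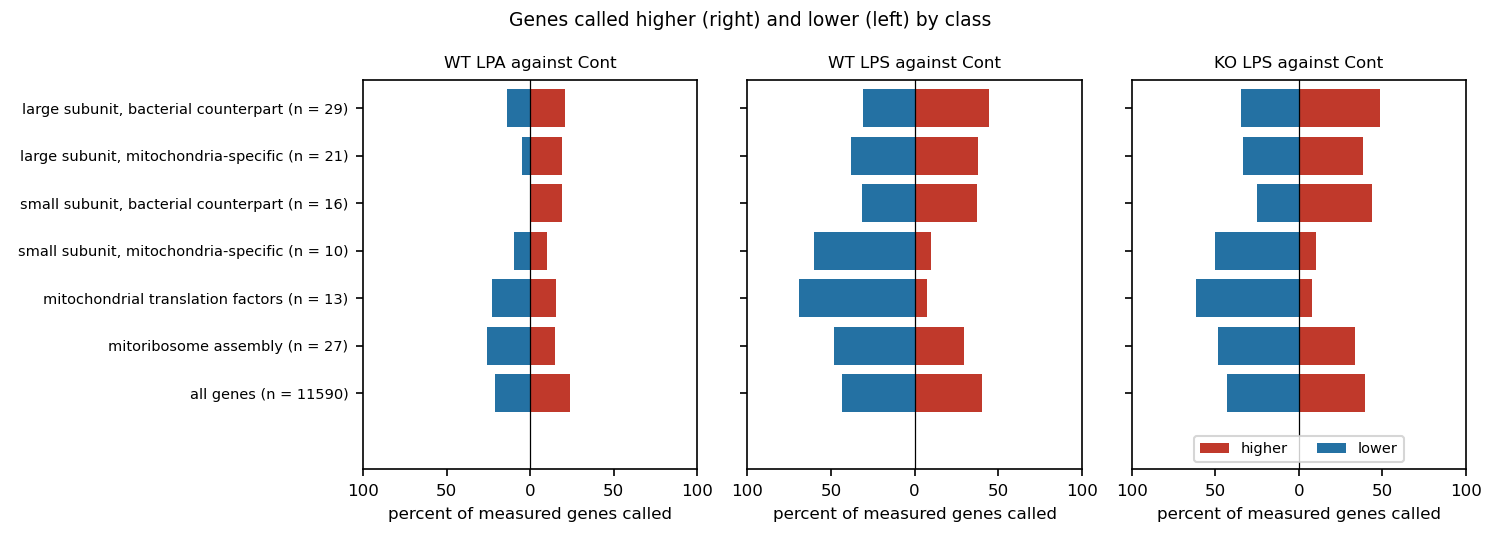
Percent of measured genes called higher (red, to the right) and lower (blue, to the left) in 3 comparisons, for 4 classes of mitochondrial ribosomal proteins, 2 lists of the same pathway and all genes. With LPS the class of 10 mitochondria-specific small-subunit genes, the 13 translation factors and all genes have more falls than rises in both genotypes. The assembly factors have more falls with LPS in WT, and every row holds both directions there.

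The LPS pattern was alike in WT and KO. Gpr35 itself was at 0.296 to 0.636 CPM in WT LPS, against 2.33 to 2.78 CPM in WT Cont, and at 0 CPM in KO LPS. Its transcript was thus already low in WT under LPS, which limits what this comparison says about the receptor. In KO, 30 members rose and 27 fell with LPS, against 82.3% of all genes called (39.3% higher, 43.0% lower), with a median log2 change of 0.05 (all genes -0.05). These libraries are separate from those of WT. Across both genotypes 27 members rose in both, 26 fell in both and 0 were called in opposite directions, so 53 of the 57 called in each genotype were called alike in the other, where the figure for all genes was 93.9% of those called in WT and 96.1% of those called in KO. Over the 77 genes, which share their libraries, the log2 changes in WT and KO had a Pearson's r of 0.98. Mrpl48, Mrps12, Mrps28 and Mrps33 were called in WT alone and Mrpl33, Mrpl47, Mrps17 and Mrps6 in KO alone, but the test of the difference between genotypes (KO minus WT, the interaction) called 0 of the 77. It called 0 of all 11590 genes, at 0%, and 0 members had an unadjusted p below 0.05. DESeq2 also called 0 members. The interaction values of the members lay between -0.25 and 0.21.

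KO and WT were also compared directly within each treatment. In untreated cells 0 of 77 members differed (background 0.00863%, which is Gpr35 alone), also by DESeq2, and 0 members had an unadjusted p below 0.05. The differences, KO minus WT, lay between -0.12 and 0.18. Under LPS 0 of 77 differed by edgeR and by DESeq2 (background 2.85%, with 0.69% higher and 2.16% lower), 4 had an unadjusted p below 0.05, and the differences lay between -0.24 and 0.15. By library totals 1 member was higher, and the share of higher among all called genes went from 24.2% to 78.2%.

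LPA changed fewer members and by less. In WT, 14 rose and 6 fell, which is 26.0% of the members, against 44.6% of all genes (23.5% higher, 21.1% lower). Their median log2 change was 0.06, against -0.01 for all genes. Among the members Mrpl52 and Mrps18b passed a 1.5-fold change, as did 11.4% of all genes. With the replicate number as a block, which pairs LPA and Cont libraries, 22 members rose and 7 fell, with all 20 of the unblocked calls among them (53.1% of all genes called). By library totals the split was 8 higher to 11 lower, and the share of higher among all called genes went from 52.7% to 40.3%. Of the 14 rises 4 had all LPA libraries above all Cont libraries, against 69.6% of the rises among all called genes (16.4% of all genes tested). Of the 6 falls 4 had all below, against 68.6% (14.5% of all genes tested).

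Among the members that rose, replicate 3 of WT LPA stood nearest the controls. The WT Cont library of the same number was the lowest control in Mrpl52 (17.3 CPM) and Mrps18b (12.7 CPM). Replicate 3 of WT LPA had 24.1 and 15.5 CPM of these. It was also lower in Acod1, the itaconate-producing enzyme, at 336 CPM against 567 to 943 in the other WT LPA libraries. This was still above the 97.7 to 129 CPM of WT Cont. Tnf, an inflammatory cytokine gene that responds to LPA in these cells, was 78.5 CPM in replicate 3 of WT LPA. It was 150 to 204 in the other WT LPA libraries and 34.9 to 47.6 in WT Cont. Without replicate 3 of WT LPA 29 members rose and 6 fell, with 19 of the 20 calls among them (52.5% of all genes called). Leaving out replicate 1 or replicate 2 of WT LPA left 8 rises each (34.9% and 32.7% of all genes called), and leaving out replicate 3 of WT Cont left 9 (36.5%). The 7 neutrophil markers of the table, whose part in the result was not tested, had log2 changes of -0.74 to -0.41 with LPA in WT (median -0.55), of which 1 passed the test, and their sum was 219 to 265 CPM in WT LPA and 262 to 474 CPM in WT Cont. The number of members called thus rests on single libraries, and the falls, at 4 to 6 over all 8 omissions, moved less.

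Mrpl52 was again the largest riser. It was at 39.4, 35.5, 24.1 and 38.9 CPM in WT LPA, with replicate 3 the lowest but still above the highest control library at 22.6. Its log2 change was 0.73 ± 0.13 (edgeR adjusted p = 1.1e-04), a 1.66-fold rise. Mrps18b was at 24.6, 25.6, 15.5 and 20.3 CPM, with replicate 3 just below the highest control library at 15.7, and rose by 0.60 ± 0.12 (5.0e-04). Mrps10, at 12.8, 10.4, 8.40 and 10.0 CPM against 6.59 to 8.60 in WT Cont, overlapped the controls by replicate 3 alone and rose by 0.49 ± 0.11 (0.0012). Mrpl39 rose by 0.43 ± 0.08 (4.0e-04), with 32.3, 31.6, 24.3 and 27.6 CPM all above the controls, Mrpl54 by 0.40 ± 0.08 (6.3e-04) and Mrpl20 by 0.35 ± 0.07 (6.2e-04). Smaller rises were those of Mrps2 (0.23 ± 0.06) and Mrpl17 (0.22 ± 0.06). The call on Mrps28 (0.36 ± 0.14, edgeR adjusted p = 0.037) was lost under several omissions, as were those on Mrpl3, Mrpl13, Mrpl16, Mrpl21 and Mrpl46, whose changes were 0.16 to 0.23.

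The falls with LPA were led by Mrpl28, with 23.3, 22.3, 19.9 and 23.1 CPM against 27.3 to 28.9 in WT Cont. All 4 libraries were below the controls, and it fell by 0.34 ± 0.06 (edgeR adjusted p = 2.4e-04). Mrps35 fell by 0.34 ± 0.08 (0.0023), from 10.0 to 10.9 CPM in the controls to 8.00, 7.57, 9.38 and 8.18. Mrpl9, with a bacterial counterpart, was the most even, at 26.4, 26.1, 26.9 and 27.4 CPM against 31.4 to 34.5, and fell by 0.30 ± 0.05 (3.6e-05). Mrpl42 fell by 0.22 ± 0.08 (0.035) with groups that overlapped, a call that was lost under 6 of the 8 omissions of 1 library. Mrpl1 fell by 0.15 ± 0.06, a call lost under 5 of the 8, and Mrpl24 by 0.13 ± 0.04, a call lost without replicate 1 of WT LPA (edgeR adjusted p = 0.076).

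The LPA effect in WT can be set beside the LPS effect in KO, which shares no library with it. Of the 20 members called with LPA in WT, 19 were called in the same direction with LPS in KO, 13 higher and 6 lower, and these are 19 of the 57 called there. Among all genes the corresponding figures were 89.8% of the LPA calls and 48.6% of the LPS calls. Mrps28 was the exception, at 0.30 ± 0.15 with LPS in KO (edgeR adjusted p = 0.069). Over the 77 genes the r of the log2 changes was 0.80. Mrpl3 changed by 1.08 ± 0.06 with LPS in KO, against 0.18 ± 0.06 with LPA in WT. Mrpl9 had the larger value with LPA, at -0.15 ± 0.05 with LPS in KO and -0.30 ± 0.05 with LPA in WT.

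In KO, LPA moved none of the members past the threshold. The count was 0 of 77 with edgeR, also with the block, and 0 with DESeq2, against 2.62% of all genes (1.56% higher, 1.06% lower), and 4 members had an unadjusted p below 0.05. The log2 changes of all members lay between -0.22 and 0.14, with a median of -0.02. Mrpl52 was at 19.0, 19.3, 21.9 and 21.8 CPM, within the 18.7 to 22.9 of KO Cont, and Mrps18b at 13.3, 13.6, 12.6 and 15.6, within 12.4 to 16.6. Mrpl28, at 26.7, 29.3, 24.96 and 25.9 CPM against 26.6 to 29.7, overlapped its controls as well. With all libraries thinned to the smallest (15167683 counts), WT LPA had 9 rises and 4 falls among the members, with 38.3% of all genes called, and KO LPA had 0, with 2.43% of all genes called. The 4 stromal and endothelial markers of the table, whose part in the result was not tested, summed to 11.6 to 26.3 CPM in KO LPA and 4.33 to 11.2 in KO Cont. Of that list, Col3a1 and Pdgfra were not in the table.

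**Figure D4:**
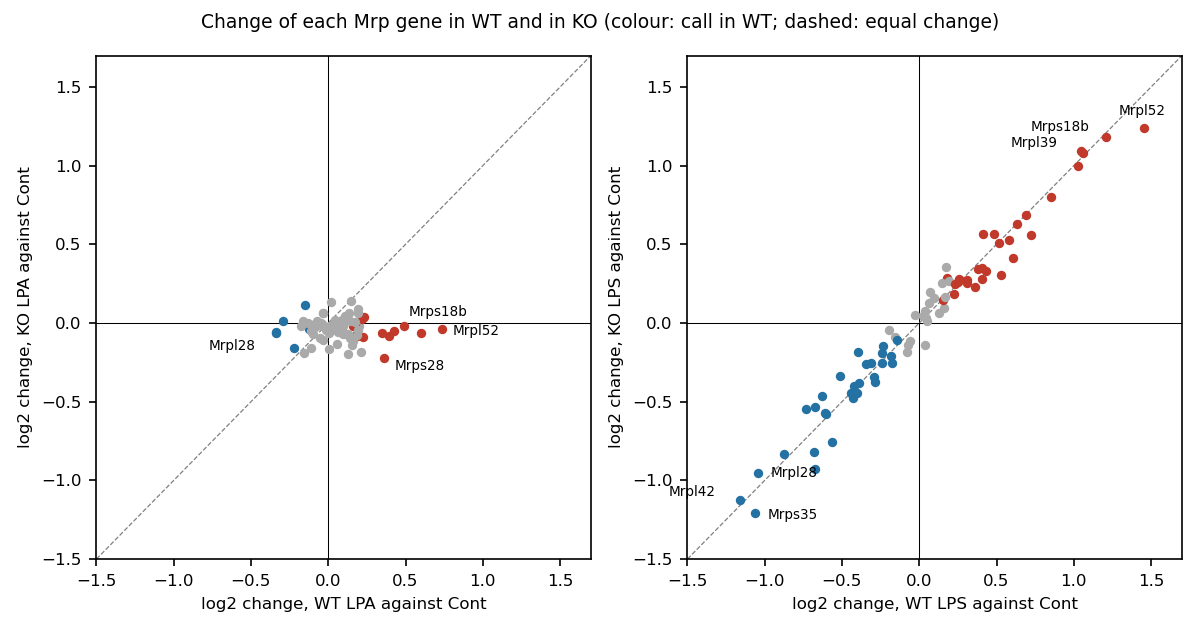
Log2 change of each of the 77 genes in KO (y axis) against WT (x axis) with LPA (left) and LPS (right), coloured by the call in WT; the dashed line marks equal change. With LPS the genes follow the dashed line, and with LPA they spread along the WT axis from -0.34 to 0.73 and stay near 0 in KO.

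The difference in the LPA effect between genotypes was tested as an interaction. It called 15 members, 19.5% of them, against 28.5% of all genes (12.7% higher, 15.8% lower). In 12 the LPA effect was lower in KO than in WT, and in 3 it was higher. By library totals 6 were lower and 4 higher, and the share of higher among all called genes went from 44.6% to 59.9%. The largest were Mrpl52 at -0.77 ± 0.18 (edgeR adjusted p = 0.0044), Mrps18b at -0.67 ± 0.18 (0.0096), Mrps28 at -0.58 ± 0.21 (0.037), Mrps10 at -0.51 ± 0.16 (0.022), Mrpl39 and Mrpl54 at -0.48 each and Mrpl20 at -0.41. The 3 positive ones were Mrpl9 at 0.31 ± 0.07 (0.0020), Mrpl28 at 0.28 ± 0.09 (0.029) and Mrpl1 at 0.27 ± 0.09 (0.026), genes that fell with LPA in WT. Mrpl52, Mrps18b, Mrpl39, Mrpl54, Mrpl20 and Mrpl9 kept their call under every omission of 1 library, while the other 9 calls were each lost under some of the 16 omissions. Those on Mrpl16 and Mrpl46 were lost under 11, Mrps28 under 10, Mrpl3 under 9, Mrps18c under 7, Mrpl1 and Mrpl22 under 6, Mrpl28 under 4 and Mrps10 under 3.

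The size of this set rests on single libraries too, as did the share of all genes called, given in brackets. Without replicate 3 of WT LPA 23 members had a lower effect in KO and 4 a higher one (40.0%). Without replicate 1 or 2 of WT LPA, or replicate 3 of KO LPA, the lower ones numbered 6 each (21.7%, 19.5% and 23.3%). They numbered 7 each without replicate 4 of WT Cont or replicate 1 of KO LPA (22.9% and 23.6%), and 5 without replicate 2 of KO Cont (22.5%). Without replicate 4 of KO Cont 1 was higher (24.6%). Compared directly under LPA, KO was lower than WT in 22 members and higher in 3 (background 50.3%, with 24.4% higher and 25.9% lower), with a median difference of -0.08 against 0.01 for all genes. The 7 neutrophil markers were 0.41 to 1.17 higher in KO LPA than in WT LPA on the log2 scale (median 0.50), with 0 past the test and 2 at an unadjusted p below 0.05, and their sum was 202 to 411 CPM in KO LPA. In untreated cells the same difference was 0.16 to 0.69 (median 0.23), and the part of these markers in the result was not tested. By library totals this split turned to 8 lower and 13 higher, and the share of higher among all called genes went from 48.4% to 67.4%. Mrpl52 differed by -0.75 ± 0.13, Mrps18b by -0.64 ± 0.13, and Mrpl39 and Mrpl54 by -0.51 ± 0.09 each. Mrpl28, Mrpl9 and Mrpl1 were higher in KO by 0.27 ± 0.07, 0.23 ± 0.05 and 0.22 ± 0.06. Without replicate 1 of WT LPA the lower ones numbered 14 (42.1% of all genes called), and without replicate 3 of KO LPA 5 were higher (44.7%).

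The other genes of mitochondrial gene expression were taken from fixed lists. With LPS, 84.2% of all genes were called in WT (40.6% higher, 43.6% lower) and 82.3% in KO (39.3% higher, 43.0% lower). Among 13 translation factors, 1 rose and 9 fell with LPS in WT (median log2 change -0.42), and in KO 1 and 8. The riser was Gfm1, the elongation factor that moves the ribosome along the messenger, at 0.67 ± 0.07. Mtrf1, a release factor, fell by 1.12 ± 0.12, and 2810006K23Rik, listed with the release and rescue factors, by 1.71 ± 0.10. Among 27 factors that assemble the mitochondrial ribosome, 8 rose and 13 fell. Rbfa, which matures the small-subunit RNA, went from 47.3 to 14.2 CPM on average and fell by 1.73 ± 0.09. Mrm2, which methylates the large-subunit RNA, fell by 1.99 ± 0.13, and Mettl17, a small-subunit assembly factor, by 1.18 ± 0.10. Gfm1, by library totals, was 0.12 and no longer called.

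Of 22 genes for mitochondrial transcription and RNA handling, 11 rose and 9 fell with LPS in WT, where 84.2% of all genes were called. Pnpt1, a polynucleotide phosphorylase that is also known as an interferon-stimulated gene, rose by 1.99 ± 0.09 and Slirp, an RNA-binding partner of LRPPRC, by 0.94 ± 0.07, while Twnk, the helicase of mitochondrial DNA replication, fell by 2.00 ± 0.15. Of 9 known upstream regulators 8 rose and 1 fell. Pprc1, a coactivator of NRF1, rose by 1.53 ± 0.11, Myc, a general driver of ribosome production, by 2.25 ± 0.19, and Gabpb1, a subunit of GABP, by 0.84 ± 0.07. Of 5 mitochondrial ribosomal proteins without an Mrp symbol, Chchd1 rose by 0.35 ± 0.09, Dap3 fell by 0.13 ± 0.05, a call lost under 4 of the 8 omissions of 1 library, and Ptcd3 (0.16 ± 0.08) did not pass. By library totals Chchd1 and Ptcd3 were instead lower.

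With LPA in WT the same lists had 2 rises and 3 falls of 13 (translation factors), 4 and 7 of 27 (assembly), 8 and 1 of 22 (transcription and RNA handling), 4 and 0 of 9 (regulators) and 0 and 0 of 5, with 1 of these 5 at an unadjusted p below 0.05. Gfm1 rose by 0.30 ± 0.07, Pnpt1 by 0.58 ± 0.09, Pprc1 by 0.71 ± 0.11 and Myc by 0.73 ± 0.18, and Rbfa fell by 0.51 ± 0.09. Of all genes, 44.6% were called with LPA in WT (23.5% higher, 21.1% lower). In KO, LPA called 0 genes in each of these lists, against 2.62% of all genes. For comparison, 81 cytosolic ribosomal protein genes had 6 rises and 25 falls with LPS and 0 and 4 with LPA in WT. The 79 nuclear genes of the respiratory chain had 34 and 16 with LPS and 4 and 8 with LPA. With LPS in WT 84.2% of all genes were called.

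The position of several members bears on how their counts can be read. By GENCODE, Mmp14, a matrix metalloproteinase, starts on the same strand 1856 bases past the end of Mrpl52, and it rose by 1.36 ± 0.12 with LPA and 3.05 ± 0.13 with LPS in WT. Tmem8 ends 246 bases before the start of Mrpl28 on the same strand, and fell by 0.89 ± 0.07 with LPA and 2.30 ± 0.08 with LPS. Pnpla7, whose start lies 935 bases from that of Mrpl41 on the other strand, fell by 2.72 ± 0.14 with LPS. A part of reads from these neighbours in the counts of the members was not tested. Mrps18b starts 45 bases from Ppp1r10, which rose by 0.38 ± 0.05 with LPS, and Mrpl54 starts 26 bases from Apba3, which was at 0.01 ± 0.10. In all, 22 members were paired head to head (back to back on opposite strands, starts within 1000 bases) with a coding neighbour of the table. With LPS in WT, 7 of these pairs were called in one direction and 5 in opposite directions, and with LPA 0 and 0. Of all genes 84.2% were called with LPS in WT and 44.6% with LPA. No share for other gene pairs was taken, so these counts say nothing about shared starts. Some near opposite starts with overlapping genes were not counted. An example is Mrpl13 with Mtbp, 340 bases apart, which both rose with LPA in WT (Mtbp by 0.36 ± 0.13). The exons of 20 members overlap those of another gene of the table. Where the strands differ, such as in Mrpl46 with Mrps11, the counts are uncertain if the strand was not used. Mrps24 with Urgcp (226 bases), Mrps34 with Nme3 (289) and Mrps6 with Slc5a3 (159) overlap on the same strand. Their counts are uncertain in either case. Urgcp, Nme3 and Slc5a3 changed by 0.71, -1.73 and -0.25 with LPS in WT.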

How the data were processed

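The deposited values are counts of reads per gene; per the labels' protocols they come from a stranded kit read from both ends over 51 bases, and per the submitters' processing notes STAR 2.5.2a and the build mm10 were used. How reads were counted (tool, strand, annotation) is not given in the sources used here. The deposited gene lengths served for RPKM. Members and gene lists were chosen with earlier results of these data known. edgeR 4.0.16 (TMM, robust quasi-likelihood F test) was fitted to all 24 libraries with a mean per group, p-values were adjusted over 11590 genes and called below 0.05, and filterByExpr removed no gene. The fit was tested on simulated data. DESeq2 1.42.0 was an alternative. Named were up to 4 largest rises and falls per comparison at a mean of at least 2 CPM, the 3 highest and lowest levels, 3 genes per pathway list by p, and a fixed set of members; other called members are named after their values were seen. No library was a copy: over 36 replicate pairs the chi-square divided by its degrees of freedom was 4.09 to 77.2. The main fit did not use the replicate numbers. Only the alternative fit with the replicate block took them to pair libraries, which the labels do not state. The deviations of same-numbered libraries correlated in every pair for Cont and LPA (r 0.211 to 0.626 in WT, 0.280 to 0.772 in KO). They also did for KO Cont and LPS (0.196 to 0.511), and more weakly for WT Cont and LPS (0.094 to 0.264). Same-numbered KO and WT libraries of one treatment had r of -0.576 to 0.177. Some libraries with different numbers correlated as well. Examples are KO Cont replicate 4 with KO LPA replicate 1 (0.466) and WT Cont replicate 1 with WT LPA replicate 4 (0.323). Across genotypes, WT Cont replicate 1 and KO Cont replicate 2 reached 0.670, so the pairing by number is an assumption.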

Additional observations from a re-analysis of the deposited data

Results flagged for a closer look

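In 6 of 150 sets of 4 libraries (25 genes in 6 groups), 1 library lay far from the other 3 by Dixon's criterion, which chance gives in about 5% of sets. Mrpl3 was 27.9 CPM in replicate 2 of KO LPA (others 26.0 to 26.3) and 57.4 CPM in replicate 3 of KO LPS (59.6 to 59.9). Mrpl37 was 23.4 CPM in replicate 3 of WT Cont (24.4 to 24.6) and Mrpl41 was 4.64 CPM in replicate 3 of WT LPS (5.29 to 5.32). Mrpl54 was 19.2 CPM in replicate 3 of KO Cont (17.6 to 17.8) and 33.4 CPM in replicate 4 of KO LPS (36.5 to 37.1).

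The LPA effect differed between the genotypes, by the interaction test of edgeR, in 15 members. It was lower in KO than in WT, on the log2 scale, for Mrpl52 (-0.77), Mrps18b (-0.67), Mrps28 (-0.58), Mrps10 (-0.51), Mrpl39 (-0.48), Mrpl54 (-0.48), Mrpl20 (-0.41), Mrpl22 (-0.33), Mrpl46 (-0.31), Mrps18c (-0.30), Mrpl16 (-0.26) and Mrpl3 (-0.25). It was higher in KO for Mrpl9 (0.31), Mrpl28 (0.28) and Mrpl1 (0.27). Of these 15, the calls on Mrpl52, Mrps18b, Mrpl39, Mrpl54, Mrpl20 and Mrpl9 were kept under all 16 omissions of 1 library, and the other 9 were each lost under 3 to 11.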

How the results depend on the processing

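Scaling by library totals moved most values. It gave 8 rises and 11 falls for LPA in WT, 7 and 61 (median -0.51) for LPS in WT, 7 and 58 (median -0.44) for LPS in KO, 13 higher and 8 lower (median 0.024) for KO against WT under LPA, 1 higher (median 0.086) for KO against WT under LPS, 6 lower (median 0.0073) for the LPA interaction, and a median of 0.056 for the LPS interaction. Under it, among the genes named by rule, the LPS change was reversed in WT for Mrpl12 (-0.46), Mrpl11 (-0.52), Mrpl45 (-0.33), Mrps18a (-0.15), Mrps18c (-0.038), Mrps30 (-0.33), Mrpl37 (-0.49), Chchd1 (-0.21) and Ptcd3 (-0.39), and in KO for Mrpl12 (-0.34), Mrpl11 (-0.42), Mrpl45 (-0.31), Mrps18a (-0.15), Mrps30 (-0.25) and Mrpl37 (-0.37). Other members reversed as well and the list is not complete. By totals, Mrps2 went from 25.3 to 20.5 CPM on average with LPS in WT, Mrpl16 from 13.3 to 10.8, Mrpl21 from 14.1 to 12.8 and Mrps28 from 5.37 to 5.28. Thinning gave 9 rises for LPA in WT, 7 lower for the LPA interaction, and -0.082 for Mrpl11 with LPS in WT. A fit of the compared groups gave 11 lower for KO against WT under LPA. The replicate block gave 22 rises for LPA in WT and 8 lower for KO against WT under LPA, where the numbers do not pair the libraries; it changed no other count by over 1.5 times. Leaving out 1 library gave 8 to 29 rises for LPA in WT (32.7% to 52.5% of all genes called). It gave 14 to 32 lower and 3 to 5 higher for KO against WT under LPA (41.3% to 57.2%). For the LPA interaction it gave 5 to 23 lower and 1 to 4 higher (19.5% to 40.0%). Mrpl12 with LPS in WT ranged from -0.0014 (without replicate 1 of WT LPS) to 0.1755. Otherwise the cause was not tested. DESeq2, median-ratio size factors and both filters kept every count within 1.5 times. The smallest count of a member in a library was 28, and counting error limits such genes most.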
